A study of Rattus norvegicus with 58 samples.

Results

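The comparison described here is kidney messenger RNA after 5 days of gavage with 500 mg/kg of 4-methylcyclohexanemethanol (MCHM), set against kidney of rats gavaged at 0 mg/kg. It comprises 9 arrays, 4 at 500 mg/kg and 5 at 0 mg/kg, out of 58 arrays in the series, chosen by organ and dose in the sample titles. All rats were male and of the Harlan Sprague-Dawley stock, and every animal of the groups used here was gavaged, the controls included. Further arrays are used beside this pair, also from male rats gavaged for 5 days: kidney at 300 mg/kg (4 arrays), kidney at 0.1, 1 and 10 mg/kg (12 arrays in all), and liver at 500 and 0 mg/kg (9 arrays). Kidney at 100 mg/kg (4 arrays) entered the kidney fits and is shown by dose. The kidney minus liver fit also took in the liver arrays at the other doses. The animals' age, the vehicle and the region of kidney taken are not given in the sources used here. RNA was hybridised to Affymetrix rat arrays, 1 array per sample, and each value is the deposited log2 level of a probe set, so that differences are log2 fold changes. By their titles, arrays within a group are biological replicates.

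MCHM is a saturated ring alcohol: a cyclohexane ring with a methyl group and a hydroxymethyl group. Primary alcohols of this kind are in general oxidised by alcohol and aldehyde dehydrogenases to a carboxylic acid, which can be joined to glucuronic acid or glycine and passed out in urine. The proximal tubule, which makes up most of the kidney cortex, carries out such conjugation, moves organic acids with its own transporters and burns fatty acids for energy. Its cells divide rarely in a healthy adult kidney and divide again after injury.

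Some kidney arrays carried transcripts of other tissues, and they are named before the results because several differences rest on them. Replicate 3 at 500 mg/kg had high adipose transcripts. Ucp1, the uncoupling protein of brown fat, was at 4.49, 4.58, 12.40 and 4.58 at 500 mg/kg, against 4.37 to 4.79 at 0 mg/kg. Fabp4, a fatty acid carrier of fat cells, was at 12.44 on that array, between 5.48 and 6.66 on the other 3 arrays at 500 mg/kg, and between 6.07 and 8.36 at 0 mg/kg. The mean over 14 adipose markers was 9.56 on that array, against 6.93 to 7.13 on the other arrays at 500 mg/kg and 6.97 to 7.52 at 0 mg/kg. Plin1 and Lep, 2 further fat cell markers, stood at 4.83 and 3.93 on it, near or below the 40th percentile of an array (4.62 to 4.70). At 0 mg/kg Plin1 was at 4.04 to 4.32, below its level on that array, and Lep at 3.84 to 4.11. Replicate 3 at 300 mg/kg was alike, with an adipose mean of 10.54. At 0.1 mg/kg, replicate 4 had Ucp1 at 7.34. Among the controls, replicate 1 held some adipose transcripts above the others. Its Cfd was at 6.08 against 3.56 to 3.69, and its Adipoq at 6.17 against 4.61 to 4.75. Control replicate 2 had high liver transcripts. Alb, serum albumin, was at 5.11, 4.52, 6.14 and 3.93 at 500 mg/kg, against 5.93, 10.19, 3.75, 5.19 and 4.38 at 0 mg/kg. The mean over 7 liver markers was 5.91 to 6.11 at 500 mg/kg, against 7.76 on control replicate 2 and 6.0 to 6.15 on the other controls.

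The kidney's own markers were high on every array of both groups. Slc34a1, the sodium phosphate carrier of the proximal tubule, was at 13.14 to 13.45 at 500 mg/kg and 12.80 to 13.40 at 0 mg/kg. Aqp2, the water channel of the collecting duct, was at 10.22 to 10.97 at 500 mg/kg and 10.12 to 11.37 at 0 mg/kg. A second pattern separated arrays within both groups. Umod, uromodulin of the thick ascending limb, was at 13.07, 13.53, 12.37 and 13.49 at 500 mg/kg, against 12.88, 13.47, 13.79, 13.42 and 13.68 at 0 mg/kg. Slc22a2, the organic cation transporter of the basolateral tubule membrane, was at 11.51, 11.95, 10.65 and 11.67 at 500 mg/kg, against 11.32, 11.95, 12.46, 12.11 and 12.31 at 0 mg/kg. Replicate 3 at 500 mg/kg and control replicate 1 were thus the lowest of their groups for both genes. Values are therefore given with all arrays and without replicate 3 at 500 mg/kg, and where another array decides a count it is named.

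**Figure D1:**
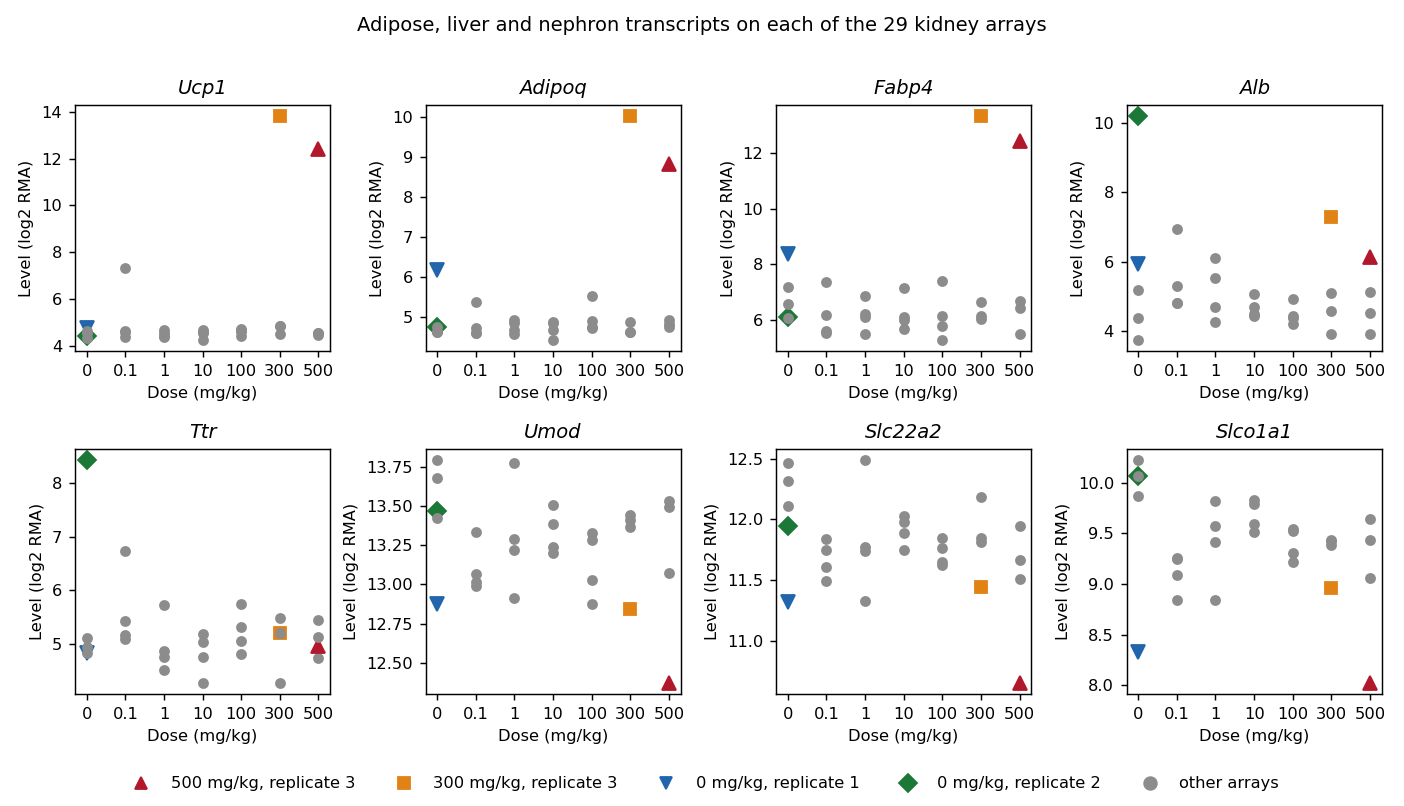
Level of 8 transcripts (log2 RMA, vertical axes) on each of the 29 kidney arrays by dose (mg/kg, horizontal axes), with marked symbols for 4 arrays that stand apart. Ucp1 reached 12.40 on replicate 3 at 500 mg/kg, Alb reached 10.19 on control replicate 2, and Slco1a1, an organic anion transporter, was at 8.02 on replicate 3 at 500 mg/kg and 8.33 on control replicate 1.

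At 500 mg/kg, 3 kidney genes rose and none fell by limma's moderated test with a Benjamini-Hochberg adjusted p under 0.05, out of 11204 genes tested (0.0268% called). They were Hpd, Dnase1 and Yars2. At an unadjusted p under 0.05, 708 genes lay higher (6.32%) and 365 lower (3.26%), together 9.58% of the genes tested. Leaving out replicate 3 at 500 mg/kg kept Hpd and Dnase1 (0.0179% called), and 748 genes, 6.68%, then had an unadjusted p under 0.05 (4.44% higher and 2.24% lower). The number of calls depended on single arrays: it was 34 without control replicate 1, 11 without replicate 2 at 500 mg/kg, 7 without control replicate 3 and 6 without replicate 4 at 500 mg/kg. It was 3 without control replicate 2, the array with liver transcripts. With only these 9 arrays in the fit, 0 genes were called. The 500 mg/kg arrays did not overlap the control arrays for 229 genes on the higher side (2.04%) and 128 on the lower side (1.14%).

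The 3 genes that rose were expressed at middle to high levels. Hpd encodes 4-hydroxyphenylpyruvate dioxygenase, an enzyme of tyrosine breakdown in liver and proximal tubule. Its level was 12.65, 12.46, 12.77 and 12.46 at 500 mg/kg, against 12.23, 12.10, 12.03, 12.07 and 12.09 at 0 mg/kg. Every array at 500 mg/kg lay above every control array. The mean was 12.59 ± 0.15 (SD, n = 4) against 12.10 ± 0.07 (SD, n = 5), a rise of 0.48 ± 0.07 (SE), or 1.40-fold, with an adjusted p of 0.00104 in limma. Without replicate 3 the difference was 0.42 (adjusted p = 0.013).

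Dnase1 encodes the secreted endonuclease deoxyribonuclease I, which the kidney makes in quantity. It stood at 11.51, 11.45, 11.45 and 11.89 at 500 mg/kg, against 11.00, 10.62, 11.00, 10.32 and 10.58 at 0 mg/kg. The groups did not overlap, and replicate 4 was the highest of the arrays at 500 mg/kg. The rise was 0.87 ± 0.14 (SE), or 1.83-fold, with an adjusted p of 0.00881 in limma, and without replicate 3 it was 0.91 (adjusted p = 0.0209). Dnase1 was the only gene of the 3 that also reached 1.5-fold.

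Yars2 encodes the mitochondrial tyrosyl-tRNA synthetase, which charges tyrosine for protein synthesis inside mitochondria. Its 4 values at 500 mg/kg were 8.00, 8.02, 8.00 and 8.00, against 7.53, 7.76, 7.71, 7.65 and 7.63 at 0 mg/kg. The treated arrays were closer together (SD 0.01) than the controls (SD 0.09). The rise was 0.35 ± 0.07 (SE) with an adjusted p of 0.0465, just inside the threshold. Without replicate 3 the difference was again 0.35, with an adjusted p of 0.17. Yars2 also missed the threshold when any other array at 500 mg/kg, control replicate 4 or control replicate 5 was left out (adjusted p 0.0571 to 0.169).

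**Figure D2:**
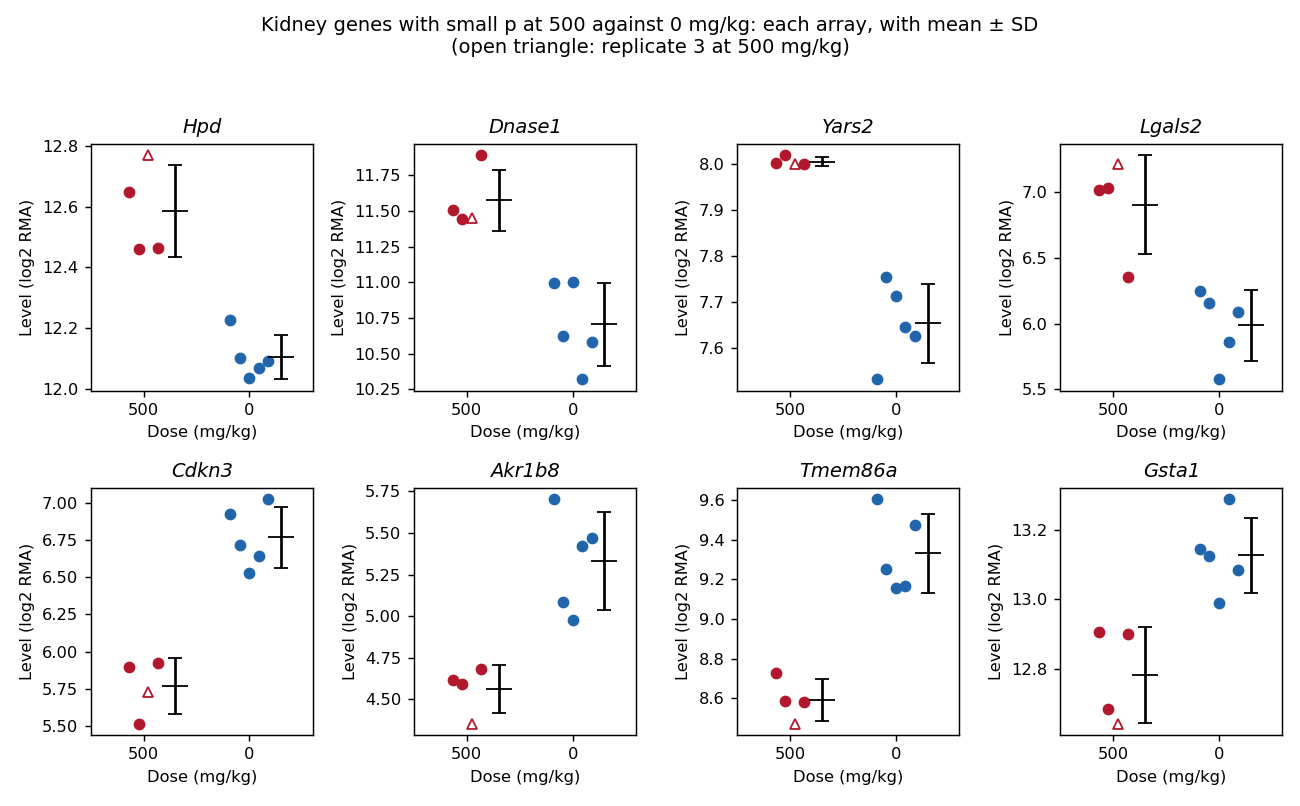
Level (log2 RMA, vertical axes) of 8 genes on each kidney array at 500 mg/kg (red) and 0 mg/kg (blue), with the mean and SD in black and replicate 3 at 500 mg/kg as an open triangle. Hpd, Dnase1 and Yars2 passed the adjusted test; the other 5 did not, and in all 8 panels the arrays of the dose groups do not overlap.

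The next 7 genes on the higher side had adjusted p between 0.062 and 0.0775 in limma, so they did not pass. Lgals2, galectin 2, a sugar-binding lectin, was at 7.02, 7.03, 7.21 and 6.35 at 500 mg/kg, against 6.25, 6.16, 5.58, 5.86 and 6.09 at 0 mg/kg. The groups did not overlap, although replicate 4 at 500 mg/kg came close to the highest control. Its difference was 0.92 ± 0.18 (SE) with an adjusted p of 0.062. Ccl21, a chemokine that lymphatic endothelium makes, was at 7.03, 6.92, 7.69 and 7.03 at 500 mg/kg, against 6.41, 6.35, 6.20, 6.50 and 6.34 at 0 mg/kg. Its difference was 0.81 with all arrays (Ccl21 copies are near-identical, so the copy measured is uncertain) and 0.64 without replicate 3, which was the highest. Amacr, a racemase for methyl-branched fatty acids, was at 11.85, 11.84, 11.70 and 11.84 at 500 mg/kg, against 11.30, 11.61, 11.49, 11.58 and 11.63 at 0 mg/kg. For Amacr replicate 3, the array with adipose transcripts, was the lowest of the treated arrays, and the difference was 0.28 with it and 0.32 without it.

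Smaller differences completed the higher side. Rpsa, a protein of the small ribosomal subunit, differed by 0.20, and 2 further probe sets of Rpsa by 0.26 and 0.30. Man2c1, a cytosolic mannosidase, differed by 0.24, and by 0.15 and 0.03 at its other probe sets, and Akr1e2, an aldo-keto reductase, by 0.21. Lpcat3 adds polyunsaturated fatty acids to membrane lysophospholipids, and its arrays overlapped, at 9.15, 9.04, 9.36 and 8.84 at 500 mg/kg against 8.93, 8.60, 8.68, 8.56 and 8.71 at 0 mg/kg. Its difference was 0.40, and 0.38 at its other probe set. Without control replicate 1, Lgals2, Ccl21, Rpsa, Man2c1 and Lpcat3 passed (adjusted p 0.0323 to 0.0492), Lgals2 and Lpcat3 also passed without replicate 4 at 500 mg/kg (0.0101 and 0.0287), and Man2c1 without control replicate 3 (0.0421). Among genes without overlap, Sgca, a sarcoglycan of muscle membranes, differed by 0.79, and by 0.56 without replicate 3, where it stood at 6.73. Stra6, the cell surface receptor for retinol-binding protein, differed by 0.62 (adjusted p = 0.214), with control replicate 3 at 6.74 and the other controls at 7.67 to 8.00, and its 3 other probe sets differed by 0.29, -0.0039 and 0.65.

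On the lower side the 10 genes with the smallest p had adjusted p between 0.062 for Cdkn3 and 0.0795 for Prr15, so none passed. Cdkn3, a phosphatase that acts on cyclin-dependent kinases, was at 5.90, 5.52, 5.73 and 5.92 at 500 mg/kg, against 6.93, 6.72, 6.53, 6.65 and 7.02 at 0 mg/kg. The gap between the groups was wider than the range of either. Its difference was -1.0 ± 0.20 (SE) with an adjusted p of 0.062, and -0.99 without replicate 3. Tmem86a, a membrane protein of the lysoplasmalogenase family, was at 8.73, 8.59, 8.47 and 8.58 at 500 mg/kg, against 9.60, 9.25, 9.16, 9.17 and 9.47 at 0 mg/kg. Its groups did not overlap, and the difference was -0.74 at this probe set and -0.60 at its other one. Akr1b8, an aldo-keto reductase that reduces aldehydes, was at 4.61, 4.59, 4.35 and 4.68 at 500 mg/kg, against 5.70, 5.08, 4.98, 5.42 and 5.47 at 0 mg/kg. Its difference was -0.77 ± 0.16 (SE), adjusted p 0.0775, near the level at which a probe set was kept.

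The other 7 of these genes held metabolic enzymes and binding proteins. Me1, the cytosolic malic enzyme, differed by -0.47 and by -0.50 at its other probe set, without overlap. Ywhah, a 14-3-3 adaptor, differed by -0.22, and Sgms1, a sphingomyelin synthase, by -0.38, both without overlap. The other probe set of Sgms1 differed by -0.04. Prr15 differed by -0.39. Mbl2 encodes mannose-binding lectin, a plasma protein made mostly by the liver, and its arrays overlapped: 4.86, 4.50, 4.82 and 4.61 at 500 mg/kg against 5.25, 5.84, 5.42, 5.85 and 4.82 at 0 mg/kg. Its difference was -0.74, and -0.64 without control replicate 2, the array with liver transcripts. Without control replicate 1, Cdkn3, Me1, Mbl2, Ywhah, Gstp1 and Sgms1 passed (adjusted p 0.0396 to 0.0452). So did Cdkn3 and Akr1b8 without control replicate 3 (0.0467 and 0.0421), Me1, Gstp1 and Prr15 without replicate 2 at 500 mg/kg (0.0178 to 0.0345), and Mbl2 without control replicate 5 (0.0142). For Gstp1, control replicate 1 was the lowest control, and the fit without it kept replicate 3 at 500 mg/kg, the lowest treated array. Ccn2, a matrix-associated growth factor, was among the largest differences without overlap at -0.62 (adjusted p = 0.101).

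Genes of cell division had the lowest median among the 29 lists with at least 10 members tested. The 7 liver markers tested, a shorter list, had a median of -0.55 with control replicate 2, the array with liver transcripts, in the comparison. DNA replication needs the MCM helicase and the sliding clamp Pcna, and mitosis needs the kinase Cdk1 with its cyclins, the kinesins Kif20a and Kif23 and the spindle protein Prc1. Of 32 cell cycle genes listed, 29 were tested: 0 were called against 0 mg/kg, and 19 lay lower and 0 higher at an unadjusted p under 0.05, where 3.26% of all genes tested lay lower. Below 0 stood 26 of the 29, with a median difference of -0.31, against a median of 0.02 over all genes. Without replicate 3 at 500 mg/kg the median was again -0.31 and 15 genes lay lower at that level, beside 2.24% of all genes. The number was 12 of 29 without replicate 2 at 500 mg/kg, and 11 of 18 under a stricter filter on dim probe sets. The 500 mg/kg arrays lay below all control arrays for 13 of the 29, and for 1.14% of all genes. In RNA from kidney tissue, fewer dividing cells and less of these RNAs per cell cannot be told apart.

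Mitotic genes led the group. Ccnb2, cyclin B2, was at 5.89, 5.63, 5.78 and 5.73 at 500 mg/kg, against 6.58, 6.33, 6.10, 6.31 and 6.67 at 0 mg/kg. Cdk1 was at 6.77, 6.59, 6.75 and 6.70 at 500 mg/kg, against 7.44, 7.22, 7.04, 7.27 and 7.44 at 0 mg/kg. For both genes the treated arrays lay close together and under every control. The differences were -0.64 ± 0.15 (SE, adjusted p = 0.0831) for Ccnb2 and -0.58 ± 0.15 (SE, adjusted p = 0.112) for Cdk1 in limma. Kif20a differed by -0.54, and Kif23 by -0.53 at the probe set used and by -0.12 at its other one. Pcna, at 9.49, 9.49, 9.38 and 9.41 at 500 mg/kg against 9.52, 9.56, 9.64, 9.62 and 9.71 at 0 mg/kg, differed by -0.17. Top2a, the topoisomerase of replicating cells, differed by -0.43 without overlap (-0.20 at its other probe set), whereas Mki67, the common marker of dividing cells, differed by -0.49 with overlap.

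The mean level over the 29 genes placed the 500 mg/kg arrays apart from every other kidney array. It was 6.14 to 6.45 at 0 mg/kg, 6.22 to 6.55 at 0.1 mg/kg, 6.33 to 6.45 at 1 mg/kg, 6.10 to 6.58 at 10 mg/kg, 6.31 to 6.71 at 100 mg/kg, 6.17 to 6.25 at 300 mg/kg and 5.95 to 6.06 at 500 mg/kg. On replicate 3 at 500 mg/kg, the array with adipose transcripts, it was 6.0, between the other arrays of its group. Macrophage and lymphocyte markers lay slightly low in the same comparison, with 3 of 20 above 0, beside 55.9% of all genes, and a median of -0.09. At an unadjusted p under 0.05, 3 lay lower (3.26% of all genes): Adgre1, Ptprc and RT1-Ba, the last with other probe sets that stood on the other side of 0 or near it. Their part in the result was not tested.

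**Figure D3:**
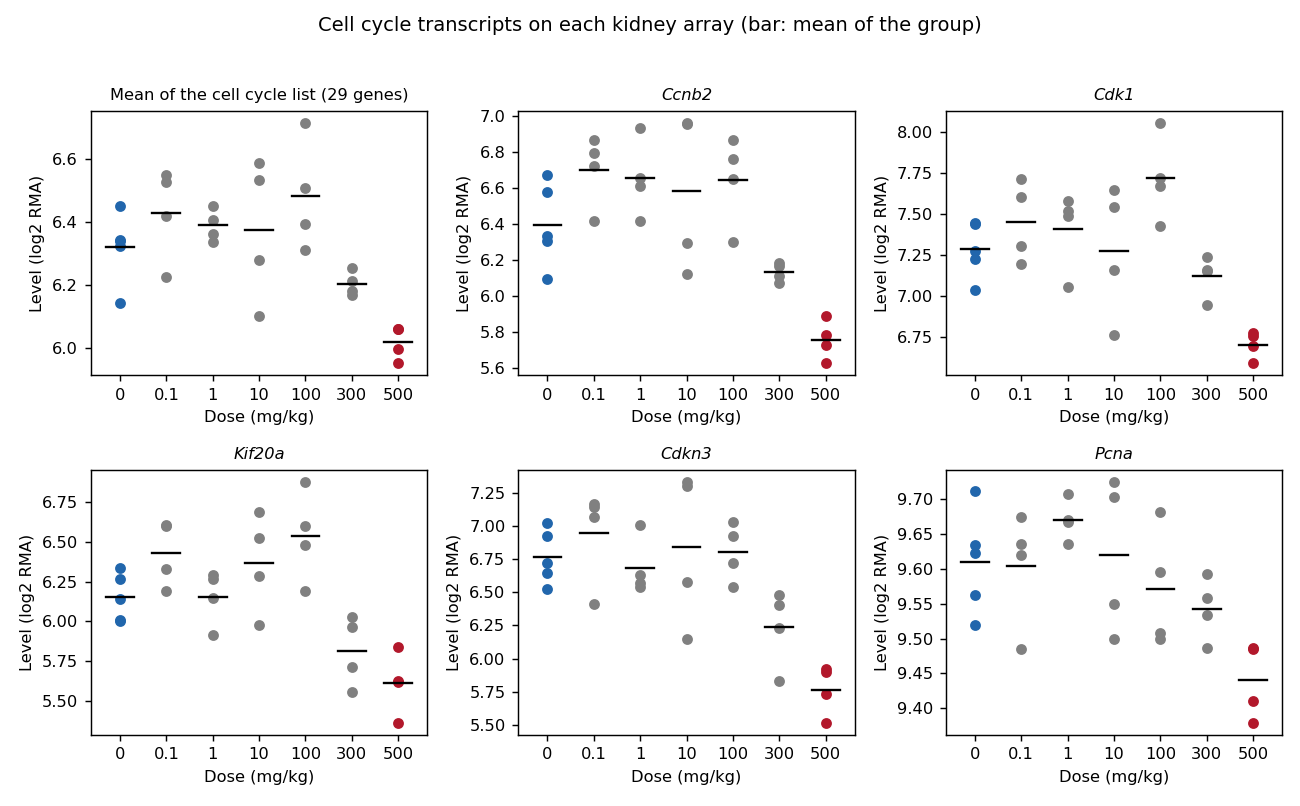
Level (log2 RMA, vertical axes) of the mean of 29 cell cycle genes and of 5 single genes on each kidney array by dose (mg/kg, horizontal axes), with bars at group means. At 500 mg/kg the mean of the list lay between 5.95 and 6.06, below all arrays of the other doses.

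Promoters of Ccnb2 and Cdk1, and of Cdkn3, which is not among the 29 genes listed, are printed because cell cycle genes are known to share a CCAAT box, bound by the factor NF-Y, and a TTTGAA element, which binds complexes that repress the genes in resting cells. The sequences are RefSeq's, build GRCr8, covering the 250 bases before the annotated start and read 5′ to 3′ in the gene's direction, with every CCAAT and TTTGAA match on either strand in capitals (ATTGG and TTCAAA are the reverse). Ccnb2 lies on the minus strand at chr8:79981659-79981908, Cdk1 on the plus strand at chr20:19265043-19265292 and Cdkn3 on the plus strand at chr15:22502148-22502397.
Ccnb2: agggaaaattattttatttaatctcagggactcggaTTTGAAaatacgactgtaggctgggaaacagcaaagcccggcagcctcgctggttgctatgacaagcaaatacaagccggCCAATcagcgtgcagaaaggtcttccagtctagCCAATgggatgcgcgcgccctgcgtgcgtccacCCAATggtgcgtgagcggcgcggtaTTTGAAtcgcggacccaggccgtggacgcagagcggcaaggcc
Cdk1: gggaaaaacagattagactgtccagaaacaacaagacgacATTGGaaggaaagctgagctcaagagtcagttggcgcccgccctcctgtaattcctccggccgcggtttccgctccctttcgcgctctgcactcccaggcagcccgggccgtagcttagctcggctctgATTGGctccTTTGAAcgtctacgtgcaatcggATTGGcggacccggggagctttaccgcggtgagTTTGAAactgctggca
Cdkn3: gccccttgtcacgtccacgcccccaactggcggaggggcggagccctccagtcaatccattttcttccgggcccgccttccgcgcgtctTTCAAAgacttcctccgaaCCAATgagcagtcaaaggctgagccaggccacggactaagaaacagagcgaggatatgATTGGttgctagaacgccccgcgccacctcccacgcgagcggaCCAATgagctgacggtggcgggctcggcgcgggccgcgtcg

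Within the 250 bases, CCAAT was found in 19 of 24 promoters of the tested cell cycle genes (79.2%), against 34.2% of all 27456 promoters. TTTGAA was found in 8 of the 24 (33.3%), against 16.1%, and both elements in 7 (29.2%), against 5.82%. Promoters of 24 of the 29 tested genes were matched by gene identifier, and Cdkn3 is not counted among them. In the 3 promoters printed no CCAAT match overlapped a TTTGAA match, and a match describes the letters and not a bound site.

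Several detoxifying and reducing enzymes lay lower, and part of their difference moved with replicate 3. The factor Nrf2 (Nfe2l2) switches on such genes under oxidative or electrophile stress. The list of its targets also holds Nfe2l2 itself and its regulator Keap1, which differed by 0.09 and 0.07. Of the 21 genes of this list tested, 6 stood above 0, beside 55.9% of all genes, with a median of -0.07. At an unadjusted p under 0.05, 5 lay lower (3.26% of all genes) and 0 higher: Akr1b8, Me1, Gstp1, Akr7a3 and Nqo1. Without replicate 3, 3 lay lower (2.24% of all genes). Gstp1, the pi class glutathione transferase, was at 11.52, 12.22, 10.72 and 12.04 at 500 mg/kg, against 12.10, 12.39, 12.80, 12.51 and 12.71 at 0 mg/kg. Replicate 3 was the lowest by a wide margin, and the difference was -0.88 with it and -0.57 without it. Akr7a3, an aldehyde reductase, differed by -0.37 with that array and -0.16 without it, and Nqo1, a quinone reductase, by -0.41 and -0.20. Replicate 3 and control replicate 1 held the lowest values of their groups for Akr7a3 and Nqo1 as they did for Umod and Slc22a2; the part of that array pattern in these differences was not tested. The letters TGACNNNGC, the core of the element Nrf2 binds, were sought on either strand of the 250 bases before the start. They were found in 5 of 19 matched promoters of the tested list, Nfe2l2 and Keap1 included (26.3%), against 10.2% of all promoters.

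Glutathione transferases join glutathione to reactive compounds. Of 17 tested, 4 stood above 0 with a median of -0.06, 3 lay lower and 1 higher at an unadjusted p under 0.05 (3.26% and 6.32% of all genes), and none was called against 0 mg/kg. Gsta1, an alpha class form abundant in proximal tubule, was at 12.90, 12.68, 12.64 and 12.90 at 500 mg/kg, against 13.15, 13.12, 12.99, 13.29 and 13.09 at 0 mg/kg. The groups did not overlap and the difference was -0.34, or -0.30 without replicate 3. Copies of the alpha class are near-identical in sequence, so which copy this probe set measured is uncertain. Gstt2 differed by -0.29 without overlap at the probe set used and by 0.04 at its other one. Gstz1, which isomerises maleylacetoacetate in the same tyrosine pathway as Hpd, was at 9.92, 10.02, 9.91 and 9.86 at 500 mg/kg, against 9.60, 9.72, 9.90, 9.66 and 9.75 at 0 mg/kg, a difference of 0.20 (adjusted p = 0.234).

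Lipid genes lay higher by their list medians with all arrays, and only the cholesterol median held without replicate 3; a difference between the lists was not tested. Cholesterol synthesis runs from acetyl-CoA through mevalonate and squalene and is switched on by SREBP2 when sterols are scarce. All 18 tested genes of this list stood above 0, with and without replicate 3, beside 55.9% and 56.8% of all genes tested. The median was 0.14 and 0.13 in the 2 fits, 5 lay higher at an unadjusted p under 0.05 (6.32% of all genes), 3 without replicate 3 (4.44%), and none was called. Fdps, farnesyl diphosphate synthase, was at 9.34, 9.31, 9.49 and 9.40 at 500 mg/kg, against 9.22, 9.14, 9.19, 9.26 and 9.21 at 0 mg/kg, without overlap. Its difference was 0.18 ± 0.06 (SE, adjusted p = 0.253). Mvd, which makes isopentenyl diphosphate, differed by 0.30, Fdft1, squalene synthase, by 0.21, and Msmo1, a sterol oxidase, by 0.18. Insig1, which holds SREBP in the endoplasmic reticulum, differed by 0.40, and by 0.22 without replicate 3, on which it stood at 9.51, against 8.75 to 8.94 on the other treated arrays. The list mean was 8.0 to 8.09 at 500 mg/kg, against 7.77 on control replicate 2 and 7.90 to 8.01 on the other controls. Without control replicate 2, the array with liver transcripts, Mvd, Fdps and Insig1 kept an unadjusted p under 0.05 in limma. Fdft1 and Msmo1 then differed by 0.16 and 0.12, with unadjusted p of 0.054 and 0.17 in limma.

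Fatty acid genes depended more on replicate 3, the array with adipose transcripts. The median over 15 genes of fatty acid synthesis was 0.18 with all arrays and 0.01 without replicate 3, and over 26 genes of fatty acid oxidation and PPAR alpha targets it was 0.14 and -0.01. Single genes stood out in both directions without that array. Fads1, the delta-5 desaturase, was at 10.30, 10.20, 10.72 and 10.10 at 500 mg/kg, against 10.17, 9.56, 9.28, 9.83 and 9.49 at 0 mg/kg. Control replicate 1, the highest control for Adipoq at 6.17, overlapped the treated arrays, and the difference was 0.67 with replicate 3 and 0.54 without it. Fads2, the delta-6 desaturase, differed by 0.38 and 0.29, and Srebf1, which encodes a factor that drives these genes, by 0.36 and 0.20, and by 0.12 with all arrays at its other probe set. Cyp4a1, an omega-hydroxylase under PPAR alpha with near-identical family members, differed by 0.54 and 0.41. Without control replicate 1, Fads1 (adjusted p = 0.0234) and Cyp4a1 (adjusted p = 0.0452) passed in limma, as did Cyp4a1 without replicate 2 at 500 mg/kg (adjusted p = 0.0139).

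Cpt1a carries long-chain fatty acids into mitochondria and lay lower. It was at 10.00, 10.01, 9.75 and 9.88 at 500 mg/kg, against 10.19, 10.29, 10.22, 10.12 and 10.39 at 0 mg/kg, without overlap. The difference was -0.33 ± 0.08 (SE, adjusted p = 0.0918), -0.30 at its other probe set and -0.27 without replicate 3. Eci1, an isomerase of unsaturated fatty acid oxidation, was at 11.10, 10.73, 11.65 and 10.79 at 500 mg/kg, against 10.46 to 10.70 at 0 mg/kg, and its difference was 0.51 with replicate 3 and 0.31 without it. Acot1, an acyl-CoA thioesterase, differed by -0.17.

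Enzymes that could handle an alcohol and its acid lay on both sides of 0. Of 13 alcohol and aldehyde oxidation genes, 2 lay higher and 3 lower at an unadjusted p under 0.05 (6.32% and 3.26% of all genes), with a median of -0.05. Cyp2e1, the ethanol-oxidising cytochrome P450, was at 11.69, 11.28, 11.65 and 11.34 at 500 mg/kg, against 11.21, 11.30, 10.81, 10.67 and 10.45 at 0 mg/kg. Only control replicate 2 reached the lowest treated array, and the difference was 0.60 ± 0.15 (SE, adjusted p = 0.101). Aldh2, the mitochondrial aldehyde dehydrogenase, was at 11.38, 11.46, 11.42 and 11.22 at 500 mg/kg, against 11.58, 11.51, 11.52, 11.54 and 11.68 at 0 mg/kg, without overlap and with a difference of -0.19. Aldh7a1, which oxidises an aldehyde of lysine breakdown, differed by -0.23, and Aldh5a1, which oxidises succinic semialdehyde, by 0.37.

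Acid conjugation genes were as mixed, 3 of 15 higher and 2 lower at an unadjusted p under 0.05 (6.32% and 3.26% of all genes). Acsm1, a medium-chain acyl-CoA synthetase that activates acids such as benzoate, was at 9.96, 9.43, 9.77 and 9.29 at 500 mg/kg, against 9.43, 8.95, 8.83, 9.20 and 9.01 at 0 mg/kg. Its difference was 0.53 ± 0.13 (SE, adjusted p = 0.0831), and 0.47 without replicate 3, and it passed without control replicate 1 (0.61, adjusted p = 0.0396). Glyat, which joins activated acids to glycine, differed by 0.16, and Acsm5 by 0.26. Glucuronosyltransferases spread more widely between animals. Ugt2b7 was at 7.20, 6.31, 5.60 and 6.95 at 500 mg/kg, against 9.13, 7.70, 7.03, 7.49 and 8.20 at 0 mg/kg, and 1 treated array overlapped the controls. Its difference of -1.39 had an SE of 0.49 and an adjusted p of 0.317, and that of Ugt2b35 was -0.59. Near-identical Ugt2b copies make the assignment of these 2 uncertain.

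Transporters and injury markers gave 0 calls. Of 15 organic anion and cation transporters, 1 lay higher and 3 lower at an unadjusted p under 0.05 (6.32% and 3.26% of all genes), with a median of -0.16, and -0.05 without replicate 3. Slc22a25 differed by 0.18, Slco1a1 by -0.67 (-0.33 without replicate 3) and Slc22a2 by -0.59 (-0.32). Of 18 kidney injury genes, 2 lay higher and 1 lower at that level, and none without replicate 3, with a median of -0.03. Tff3, trefoil factor 3, was at 12.22, 12.91, 11.00 and 12.66 at 500 mg/kg, against 11.97, 13.04, 13.79, 13.27 and 13.42 at 0 mg/kg, with the same arrays lowest in their groups as for Umod. Its difference was -0.90 with replicate 3 and -0.50 without it. Without control replicate 1 the differences of Tff3 (-1.18, adjusted p = 0.0421) and Slco1a1 (-1.02, adjusted p = 0.0452) passed in limma. That fit dropped the lowest control for both genes and kept replicate 3, the lowest treated array, so the 2 passes rest on an uneven removal. Clu, clusterin, differed by 0.32 and Cst3, cystatin C, by 0.23. Havcr1, the injury marker KIM-1, did not pass the filter, at 3.74 to 4.04 at 500 mg/kg and 3.81 to 4.41 at 0 mg/kg.

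Nephron segment markers gave 0 calls. The median was 0.08 over 21 proximal tubule genes, 0.01 over 20 of the loop and distal nephron and 0.17 over 10 glomerular genes. The mean level of the proximal tubule list was 11.07 to 11.13 on the 4 arrays at 500 mg/kg and 10.90 to 11.19 at 0 mg/kg. Slc12a3, the thiazide-sensitive salt carrier, differed by 0.35, Slc20a2, a phosphate carrier, by -0.23 (-0.01 at its other probe set), Agt, angiotensinogen, by -0.61 and S100g, calbindin D9k, by -0.31 (-0.19 without replicate 3), none with an adjusted p under 0.3. Of 27 genes of oxidative phosphorylation, 22 stood above 0 and 6 lay higher at an unadjusted p under 0.05, beside 55.9% and 6.32% of all genes. Without replicate 3, 16 stood above 0 and 1 lay higher, beside 56.8% and 4.44%, which for genes lying higher is no more than the share of all genes. Cyc1, cytochrome c1, differed by 0.13 and Ndufb3, a subunit of complex I, by 0.12.

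Clock, immune and vessel genes varied by array. Of 17 clock genes, 4 lay higher and 0 lower at an unadjusted p under 0.05 (3 without replicate 3), where 6.32% of all genes lay higher (4.44% without it). Cry1, a repressor of the clock, was at 6.90, 6.70, 7.01 and 6.40 at 500 mg/kg, against 5.94, 6.0, 5.98, 6.65 and 5.84 at 0 mg/kg, with only control replicate 4 overlapping. Its difference was 0.67 (adjusted p = 0.221); Hlf differed by 0.51, and by 0.34 and 0.51 at its other probe sets. Per2 differed by 0.46 (0.28 without replicate 3) and Cry2 by 0.21, but their other probe sets differed by -0.06 and 0.02. Clock genes move with the hour of sampling, and no label gives that hour. Adgre1, the macrophage marker F4/80, was at 5.39, 4.84, 4.82 and 5.37 at 500 mg/kg, against 5.46, 5.79, 5.46, 5.77 and 5.45 at 0 mg/kg, without overlap and with a difference of -0.48. Ptprc, the pan-leukocyte marker CD45, differed by -0.35. RT1-Ba, a class II antigen-presenting gene, was at 9.43, 9.23, 9.22 and 5.73 at 500 mg/kg, against 8.97 to 10.37 at 0 mg/kg, and replicate 4 at 500 mg/kg lay far below the rest. Its difference was -1.34 at this probe set and 1.19, 0.05 and -0.07 at its other 3, and RT1-Bb of the same class differed by 1.77 (adjusted p = 0.683), so no direction is given for class II genes, whose copies are alike in sequence. Of 20 endothelial and stromal genes, 4 lay higher and 0 lower at an unadjusted p under 0.05 (6.32% and 3.26% of all genes), with a median of 0.10. Without replicate 3, 3 lay higher and 1 lower (4.44% and 2.24% of all genes), with a median of 0.04. Lum, a stromal gene, differed by 1.13, and by 0.69 without replicate 3. Myh11 and Tagln, smooth muscle genes, differed by 0.48 and 0.44, whereas Acta2, smooth muscle actin, differed by -0.0027. Flt1, an endothelial receptor, differed by 0.38. Of the same cell type, Kdr, Eng, Emcn and Tek differed by 0.19, 0.13, 0.06 and 0.02. Tie1, Pecam1 and Plvap differed by -0.28, -0.06 and -0.04.

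**Figure D4:**
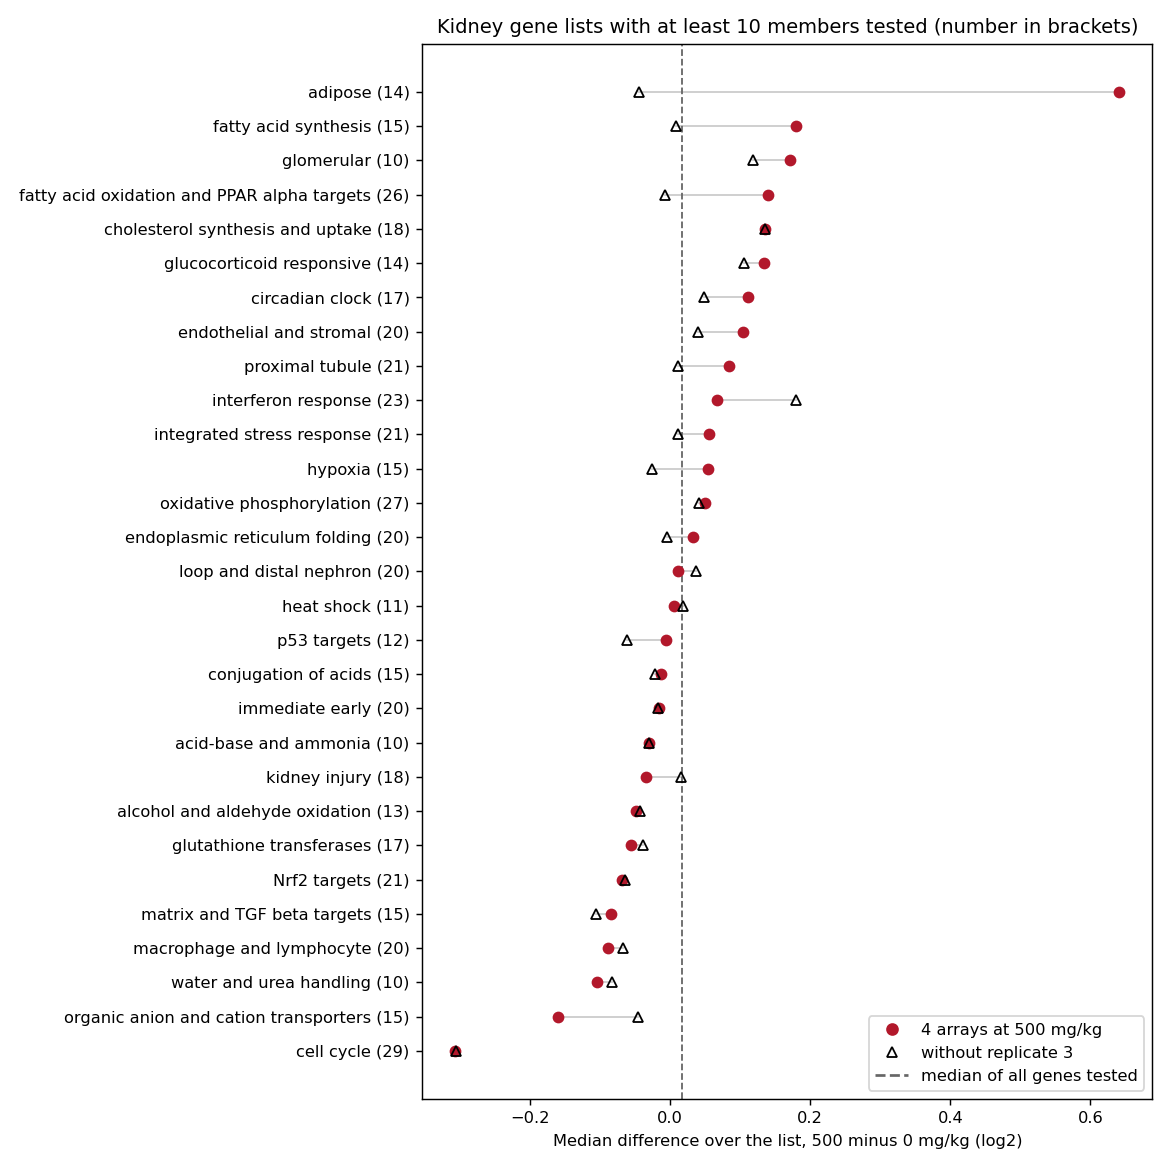
Median difference over each gene list, 500 minus 0 mg/kg (log2, horizontal axis), for 29 lists with at least 10 members tested; circles use all 4 arrays at 500 mg/kg, triangles leave out replicate 3, and the dashed line is the median of all genes (0.02). The adipose median was 0.64 with replicate 3 and -0.04 without it, whereas the cell cycle median was -0.31 in both.

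Set against the 12 arrays at 0.1, 1 and 10 mg/kg instead of the controls, the same 4 arrays at 500 mg/kg gave more calls. In limma 31 genes rose (0.277% of those tested) and 67 fell (0.598%). The comparison shares the 500 mg/kg arrays with the one above, so it is not separate evidence. Leaving out replicate 3 left 25 calls (0.223%), 24 of them among the 98 above, with 3 rising and 22 falling. The count was 34 without replicate 1 at 500 mg/kg and 30 without replicate 2, so it rested on each of these arrays.

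Tmem86a had the smallest p among those that fell, with a mean of 8.59 ± 0.10 (SD, n = 4) at 500 mg/kg and 9.66 ± 0.22 (SD, n = 12) at the low doses, and fell by 1.07 on the log2 scale (adjusted p = 0.000325 in limma). Akr1b8 fell by 0.95, Ccnb2 by 0.89, Sectm1b by 0.82 and Bmerb1 by 0.68, with adjusted p from 0.000649 to 0.00204, and all 5 were called without replicate 3 too. Sectm1b, at 8.31, 8.23, 7.69 and 8.00 at 500 mg/kg, overlapped the controls (8.13 to 8.90) but not the low-dose arrays. On the rising side were Dnase1 (0.85, adjusted p = 0.000649), Lpcat3 (0.42, 0.00456), Fdps (0.27, 0.00913), Yars2 (0.29, 0.0108) and Hpd (0.29, 0.0123). Of these, Dnase1 was called without replicate 3 (adjusted p = 0.00405); the others were not, with adjusted p between 0.0521 for Yars2 and 0.12 for Hpd. The low-dose level of Hpd, 12.30 ± 0.11 (SD, n = 12), lay between those at 500 mg/kg (12.59) and 0 mg/kg (12.10).

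All 29 cell cycle genes stood below 0 against the low doses, where 50.8% of all genes stood above 0, with a median of -0.33. Of the 29, 6 fell, where 0.598% of all genes fell: Ccnb2, Cdk1, Kif20a, Pcna, Cenpf and Prc1. Cdkn3, outside that list, fell by 1.06 (adjusted p = 0.00218). Ccnb2, Cdk1 and Kif20a were called without replicate 3 as well, where 0.196% of all genes fell. Cenpf, a kinetochore protein, fell by 0.50 and Prc1 by 0.57. Gsta1 fell by 0.34 (adjusted p = 0.00897) and Cpt1a by 0.40 (adjusted p = 0.00392), while Gstz1 rose by 0.28 (adjusted p = 0.0131) and Cry1 by 0.77 (adjusted p = 0.0353); of these 4, Cpt1a was called without replicate 3 (adjusted p = 0.0486).

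Kidney at 300 mg/kg shares its controls with kidney at 500 mg/kg, so the values are set side by side only. At 300 mg/kg 1 gene rose (0.00893%) and 2 fell (0.0179%), and without replicate 3 at 300 mg/kg, the array with adipose transcripts, 0 were called. Hpd differed from 0 mg/kg by 0.25 at 300 mg/kg and 0.48 at 500 mg/kg. Dnase1 differed by 0.46 at 300 mg/kg, at 11.35, 10.86, 11.25 and 11.18, and by 0.87 at 500 mg/kg. Yars2 differed by 0.08 at 300 mg/kg and 0.35 at 500 mg/kg, and its 4 values at 300 mg/kg were 7.74, 7.71, 7.75 and 7.73. Cdkn3 differed by -0.53 and -1.0, Akr1b8 by -0.44 and -0.77, and Tmem86a by -0.21 and -0.74 at 300 and 500 mg/kg. Akr1e2 was called at 300 mg/kg (0.26, adjusted p = 0.028) and not at 500 mg/kg (0.21, adjusted p = 0.0775). Ccn2 differed from 0 mg/kg by -0.79 at 300 mg/kg and -0.62 at 500 mg/kg, both set against the same controls. Against the low doses, Ccn2 on the same arrays at 500 mg/kg differed by 0.0958 (adjusted p = 0.859 in limma), so it was not lower there. The cell cycle median was -0.11 at 300 mg/kg and -0.31 at 500 mg/kg, and 9 of 18 cholesterol synthesis genes stood above 0 at 300 mg/kg (48.8% of all genes) and 18 of 18 at 500 mg/kg.

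The response to 500 mg/kg differed between kidney and liver for 13 of 10673 genes in limma's test of the difference (0.122% called), 2 of them higher in kidney (0.0187%) and 11 lower (0.103%). The fit took liver and kidney arrays as independent, and any pairing of organs from the same rat was not modelled. Acly, ATP citrate lyase, which makes acetyl-CoA for lipid synthesis, differed by -0.17 in kidney (9.29 ± 0.18 at 500 mg/kg, n = 4, and 9.46 ± 0.16 at 0 mg/kg, n = 5, SD) and by 0.90 in liver (11.69 ± 0.33 and 10.79 ± 0.30). The kidney minus liver difference was -1.08 ± 0.23 (SE, adjusted p = 0.0204). Me1, at another probe set here than above, differed by -0.50 in kidney and 0.41 in liver, a kidney minus liver difference of -0.91. Sqstm1, the autophagy receptor p62, differed by -0.14 in kidney (0.03, -0.15 and -0.08 at its other probe sets) and 0.39 in liver, and Sectm1b by -0.50 and 0.36. Acsm2, Hes6 and Atp1b1 stood near 0 in kidney, at -0.06, -0.08 and -0.03, and at 0.97, 0.77 and 0.53 in liver. Asap2, Lactb2, Rnf139 and Fbxo6 made up the rest of the 11. Tfpi, an inhibitor of blood coagulation, differed by 0.19 in kidney (0.09 at its other probe set) and -0.45 in liver, and Aph1a, a subunit of gamma-secretase, by 0.13 and -0.20. Without kidney replicate 3 at 500 mg/kg 5 genes were called (0.0468%): Asap2, Sqstm1, Lactb2, Acly and Tfpi. Single arrays moved the count widely, to 54 without kidney control replicate 1 and to 4 without liver replicate 4 at 500 mg/kg.

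**Figure D5:**
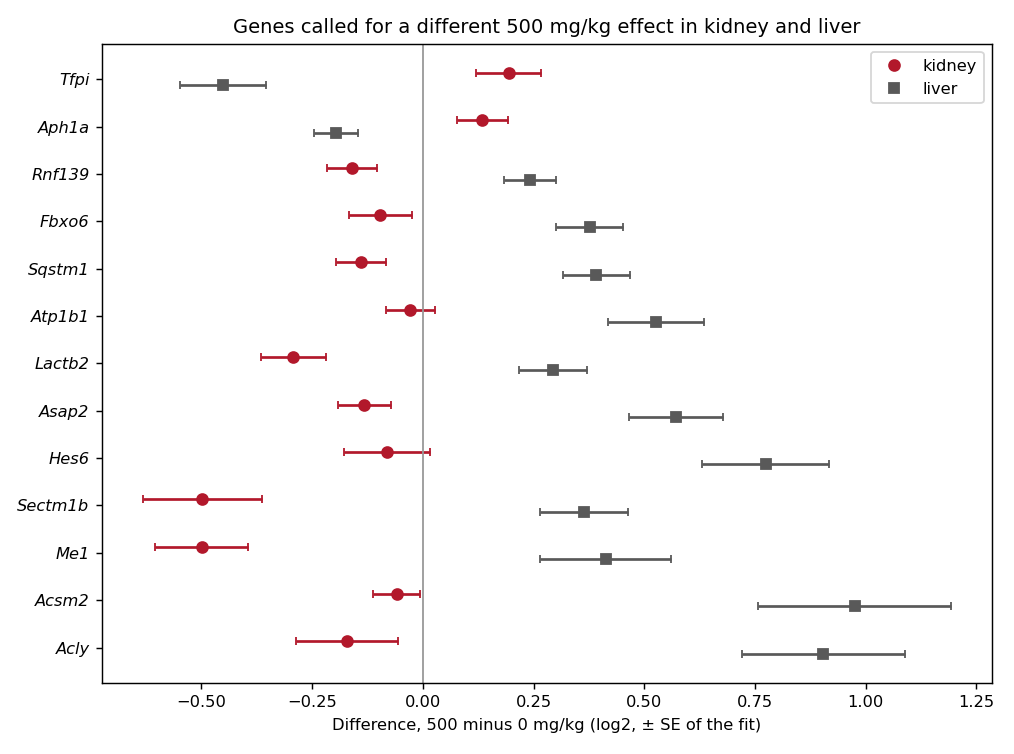
Difference between 500 and 0 mg/kg (log2, horizontal axis) with the SE of the fit in kidney (circles) and liver (squares) for the 13 genes called for a different response in the organs. Acly stood at -0.17 in kidney and 0.90 in liver, and Tfpi at 0.19 in kidney and -0.45 in liver.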

How the data were processed

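The values used are the log2 levels of Affymetrix rat expression array probe sets that the authors deposited, made by RMA per the submitters' processing notes; its version, and whether the organs were normalized together, are not given in the sources used here. They ran from 1.75 to 14.85, and no pair of kidney arrays was identical. No depth applies to arrays: the number of arrays limits the precision.

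Control probe sets were left out. Probe sets were kept that exceeded the 40th percentile of the array concerned on 4 or more kidney arrays, and the brightest kept probe set stood for each gene with 1 symbol, giving 11204 genes. limma 3.58.1 under R 4.3.3 fitted all 29 kidney arrays in 7 groups (eBayes with an intensity trend), and all 58 arrays in 14 groups for kidney minus liver. Tests were two-sided, with Benjamini-Hochberg adjustment over all genes tested and a threshold of 0.05. The method was tested on simulated data.

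Named genes are the 10 of smallest p in each direction, the 5 largest differences without overlap in each direction, up to 5 called genes in each direction of the other comparisons, and up to 4 members of each list. Further genes were named after their values were seen. The genes and lists were chosen with earlier results of these data known. Alternatives were filters, probe set rules, normalizations, array weights, a replicate block and leaving out arrays.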

Additional observations from a re-analysis of the deposited data

Results flagged for a closer look

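Single arrays were flagged in 16 of 166 gene and group pairs checked (9.64%), by the gap to the nearest array relative to the range of the group. The rule flags about 1 in 20 by chance. These genes were chosen from the same data and share arrays, so that rate is no yardstick here. Because the gap is relative, some flagged values lay close to the rest, as for Yars2. At 500 mg/kg, replicate 3 was lowest for Amacr (11.70) and Cenpf (4.73) and highest for Ccl21 (7.69). Replicate 4 was highest for Dnase1 (11.89) and lowest for Stra6 (8.05) and RT1-Ba (5.73). Replicate 1 was highest for Acsm5 (7.06), and replicate 2 for Myh11 (7.22) and Yars2 (8.02), where the other 3 Yars2 values were nearly equal. Among the controls, replicate 1 was lowest for Akr7a3 (12.19), Nqo1 (6.69) and Slco1a1 (8.33), and replicate 3 for Stra6 (6.74). Control replicate 2 was highest for Ccn2 (10.61), replicate 4 for Cry1 (6.65) and replicate 5 for Gstt2 (9.66).

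A difference in the response of the organs passed limma's test of kidney minus liver for 13 genes. The kidney minus liver difference in log2 response was -1.08 for Acly, -1.03 for Acsm2, -0.91 for Me1, -0.86 for Sectm1b, -0.86 for Hes6 and -0.70 for Asap2. It was -0.59 for Lactb2, -0.55 for Atp1b1, -0.53 for Sqstm1, -0.47 for Fbxo6 and -0.40 for Rnf139. It was 0.65 for Tfpi and 0.33 for Aph1a.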

How the results depend on the processing

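Against 0 mg/kg, the 3 calls became 0 with only the compared groups in the fit, 69 with array quality weights (46 higher, 23 lower), 18 with quantile normalization (9 and 9) and 1 at a minimum of 1.5-fold, and ran from 2 to 34 when each array was left out (34 without control replicate 1, 11 and 6 without replicates 2 and 4 at 500 mg/kg, 7 without control replicate 3). Against 0.1 to 10 mg/kg, the 98 calls became 60 with only the compared groups, 320 with weights, 24 without both arrays of high adipose transcripts and 30 without the 3 arrays of raised Ucp1, the last 2 chosen after seeing the data, and 25 to 70 without single arrays (34, 30 and 25 without replicates 1, 2 and 3). For kidney minus liver, the 13 calls became 25 with a stricter filter, 0 with only the compared groups and 84 with weights, and 4 to 54 without single arrays: 54, 31, 25, 6 and 5 without kidney control replicate 1 and kidney 500 mg/kg replicates 4, 2, 1 and 3, 26, 8 and 4 without liver 500 mg/kg replicates 2, 3 and 4, and 6 without liver control replicate 4. The 19 lower cell cycle genes became 11 with a stricter filter, which tested 18, and 12 to 21 without single arrays. The cause was not tested.

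With a replicate block there were 2 calls against 0 mg/kg, 1 higher and 1 lower (Mbl2 gained, Dnase1 and Yars2 lost), 88 against the low doses, 12 for kidney minus liver and 13 lower cell cycle genes. Same-numbered arrays at 500 and 0 mg/kg had deviations correlated at 0.07, -0.04, -0.36 and -0.05, and no array at 500 mg/kg correlated best with the control of its own number. So few arrays, some with transcripts of other tissues, cannot decide whether same-numbered arrays share more than a number. Over 83 named genes and 1819 pairs of gene and alternative, 1740 kept their side of the threshold, 62 gained a call, 17 lost one and 0 changed direction. Only the 3 called genes could lose a call: Yars2 lost it in 13 of 22 alternatives, and Hpd and Dnase1 in 2 of 22 each. The named genes were largely chosen for a small p in these data, so these totals do not measure how stable the calls are.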
